A study of Mus musculus with 7 samples.

Results

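The genes described here make the ribosome. They are 40 genes of the nucleolus, chosen by symbol with earlier results of these data known. The set holds box C/D and box H/ACA proteins, assembly factors of the small and large ribosomal subunit and subunits of RNA polymerase I. All 40 were found among the 50600 genes of each library's table. RNA was sequenced from 4 mammary tumours of ECD transgenic mice (Ecd, ecdysoneless, encodes a regulator of the cell cycle) and from 3 control mammary glands. Of the tumours, 1a and 1b were adenosquamous carcinomas, 3 was a spindle cell carcinoma and 4 a papillary carcinoma, each sampled from the centre of the mass. The sources used here do not give the strain, the age, the promoter of the transgene or the genotype of the control animals. Nor do they say if 1 animal bore both adenosquamous tumours. Nothing says that the libraries of a group came from separate animals, so the p-values may not measure the spread between animals.

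In the nucleolus, RNA polymerase I transcribes the large ribosomal RNA precursor. Box C/D particles methylate this RNA and box H/ACA particles turn selected uridines into pseudouridine. The small subunit processome folds and cuts the precursor, and a separate chain of factors builds the large subunit. Growing and dividing cells need many ribosomes, and many of these genes are known targets of the transcription factor Myc.

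Counts totalled 5420562 to 28638143 per library in tumours and 5148438 to 35631279 in glands. Genes of mitochondrial DNA took 18.34% to 32.61% of them in tumours and 48.36% to 64.83% in glands. Ecd itself was at 19.4, 15.9, 21.8 and 19.7 CPM (counts relative to library size after TMM scaling) in tumours 1a, 1b, 3 and 4, against 12.7, 14.7 and 19.1 CPM in glands 1, 2 and 3, and did not pass (edgeR log2 fold change 0.30, SE 0.26, adjusted p = 0.463). The species of the transgene is not stated, so its reads may not count towards mouse Ecd and this level does not check the labels. Gland 1 was therefore the shallowest library for nuclear genes, with 1810936 counts outside mitochondrial DNA. In gland 1, 6 of the 40 genes had under 10 counts and 1 had none, which there allows a level of up to 1.06 CPM, counting error only. All 40 genes passed the filter on low counts. Fat cell markers were low in tumours, with a summed level over 8 genes of 22.7 to 146 CPM in tumours and 3040 to 6420 CPM in glands. Cidec was at 0 counts in tumours 1b and 3, Lep in 1b, and Adipoq, Cfd and Retn in tumour 3. Skeletal muscle markers (9 genes) summed to 1.64 to 250 CPM in tumours, against 15200, 22.9 and 29400 CPM in glands 1, 2 and 3. Luminal epithelial markers (7 genes, Krt8 and Epcam among them) were present in every library, at 313 to 2410 CPM in tumours and 249 to 545 CPM in glands. In such bulk tissue, fewer cells of a type and less RNA per cell cannot be told apart.

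The first comparison asks how the tumours as a group differ from control glands. Of the 40 nucleolar genes, 7 rose in tumours, 0 fell and 33 did not pass (edgeR quasi-likelihood test, Benjamini-Hochberg adjusted p under 0.05 over all 14149 genes tested). Over all genes tested, 3.9% rose and 4.57% fell. The 7 were Nhp2, Nop56, Nop2, Mybbp1a, Fbl, Nolc1 and Noc2l. No member had an unadjusted p under 0.05 in the lower direction, beside 28.9% of all genes in either direction. In DESeq2, 0 fell and 19 rose, beside 11.5% and 13% of all genes there. In limma-voom, 0 fell and 9 rose, beside 6.31% and 4.46%. The log2 fold change was positive for 39 of the 40, as for 54.8% of all genes tested. Its median was 0.83 over the 40 and 0.12 over all genes. In 24 members every tumour lay above every gland, as in 16.3% of all genes. Every tumour lay below every gland in 0 members, and in 13.2% of all genes. Because the 40 were chosen with earlier results of these data known, these contrasts with all genes are not an independent test. The count of 7 changed when 1 library was left out, as did the share of all genes that rose. It was 1, 1 and 0 without gland 1, 2 or 3, beside 0.974%, 1.24% and 0.155% of all genes. Without tumour 1a or 1b it was 3 and 1, beside 2.42% and 1.25%. Without the spindle cell tumour it was 1, beside 1.64%, and without the papillary tumour 4, beside 4.22%. Cycling cell markers moved with these genes. All 7 of them (Mki67 and Top2a among them) rose, with a median log2 fold change of 4.54, and they summed to 365 to 563 CPM in tumours and 12.7 to 38.4 CPM in glands, with Ccnb1, Aurkb, Bub1 and Plk1 at 0 counts in gland 1. Of the epithelial markers, Krt8 (luminal, 4.66-fold, adjusted p = 0.0343) and Krt14 (basal, 60-fold, adjusted p = 0.0407) rose, each 1 of 7 in its list. The 7 basal markers summed to 96.9 to 1740 CPM in tumours and 142 to 373 CPM in glands. Of 5 endothelial markers, 0 passed in edgeR, 4 had an unadjusted p under 0.05, and the median log2 fold change was -1.52, with sums of 35.8 to 225 CPM in tumours and 208 to 321 CPM in glands. The part of these cell types in the nucleolar result was not tested.

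**Figure D1:**
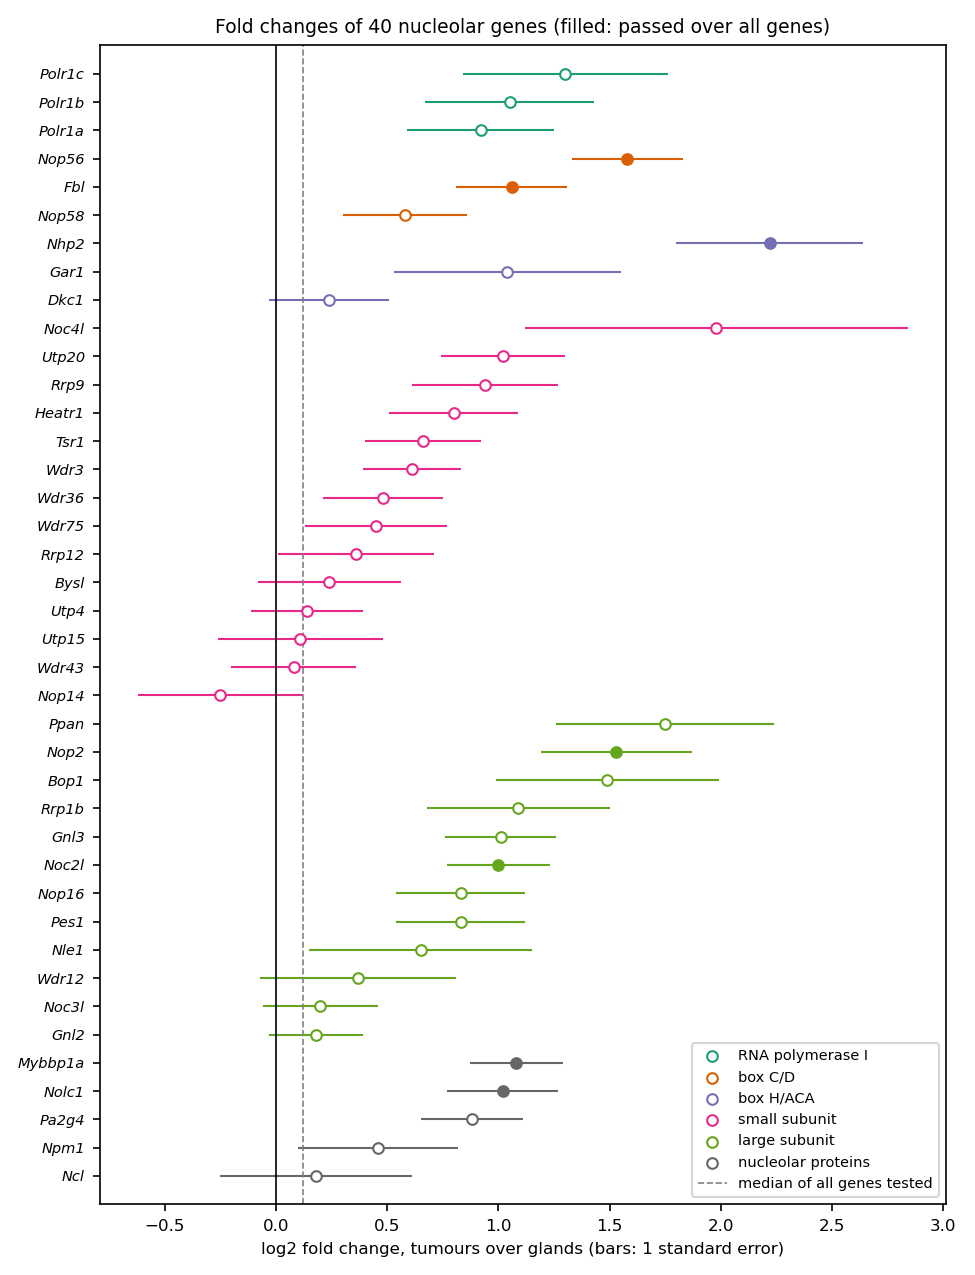
Log2 fold change of each of the 40 genes in tumours over glands (horizontal axis, with 1 standard error), grouped by role from top to bottom. Filled points passed the test over all genes. Nop14, at -0.25, is the member left of 0, and the dashed line marks the median of all genes tested, 0.12.

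The start regions of 5 of the rising genes are shown because they differ in the short E-box sequences, the letters that Myc and its partner Max bind. They run from 250 bases before to 50 after the annotated start on the gene's own strand, and come from RefSeq on GRCm38.p6. Of 38 such regions of members, 35 had their last 30 bases in a GENCODE transcript of the gene. For Nop2 and Mybbp1a the GENCODE gene starts, 125131909 and 72441355, lie after the RefSeq starts used here. Capitals mark CACGTG, the canonical E-box, which reads the same on both strands, and the variant CACGCG, searched on both strands and so also seen as CGCGTG.
Nop56, chr2:130274162-130274461, plus strand: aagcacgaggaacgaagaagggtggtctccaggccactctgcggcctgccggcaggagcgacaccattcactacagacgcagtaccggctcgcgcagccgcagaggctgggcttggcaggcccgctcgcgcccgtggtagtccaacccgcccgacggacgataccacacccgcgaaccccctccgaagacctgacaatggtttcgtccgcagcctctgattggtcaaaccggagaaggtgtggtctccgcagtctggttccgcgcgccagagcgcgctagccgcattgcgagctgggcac
Nhp2, chr11:51619523-51619822, plus strand: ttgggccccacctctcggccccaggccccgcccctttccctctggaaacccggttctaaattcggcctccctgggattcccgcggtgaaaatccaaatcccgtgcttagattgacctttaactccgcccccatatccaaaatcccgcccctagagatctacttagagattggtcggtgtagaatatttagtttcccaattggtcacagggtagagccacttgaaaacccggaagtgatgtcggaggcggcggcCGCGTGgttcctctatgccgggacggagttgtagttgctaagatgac
Nop2, chr6:125131633-125131932, plus strand: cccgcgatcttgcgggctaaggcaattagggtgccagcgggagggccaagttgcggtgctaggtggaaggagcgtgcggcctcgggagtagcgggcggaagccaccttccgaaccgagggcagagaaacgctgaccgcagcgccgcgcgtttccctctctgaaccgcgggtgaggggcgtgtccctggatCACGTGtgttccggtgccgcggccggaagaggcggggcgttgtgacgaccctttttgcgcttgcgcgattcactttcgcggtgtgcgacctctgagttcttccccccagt
Mybbp1a, chr11:72441077-72441376, plus strand: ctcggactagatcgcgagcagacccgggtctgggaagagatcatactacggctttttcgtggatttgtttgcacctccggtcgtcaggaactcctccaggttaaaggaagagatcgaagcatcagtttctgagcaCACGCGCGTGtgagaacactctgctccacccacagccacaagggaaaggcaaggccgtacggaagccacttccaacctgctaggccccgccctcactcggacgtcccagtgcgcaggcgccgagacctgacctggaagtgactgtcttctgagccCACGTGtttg
Nolc1, chr19:46075597-46075896, plus strand: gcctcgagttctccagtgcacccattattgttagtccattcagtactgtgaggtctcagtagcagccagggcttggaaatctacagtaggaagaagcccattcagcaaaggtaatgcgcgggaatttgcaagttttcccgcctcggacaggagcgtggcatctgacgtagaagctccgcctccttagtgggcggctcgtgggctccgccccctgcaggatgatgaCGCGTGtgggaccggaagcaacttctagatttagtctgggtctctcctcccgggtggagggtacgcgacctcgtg
Nop2 and Mybbp1a hold the canonical E-box, Nhp2 and Nolc1 the variant alone, and Nop56 neither. In Mybbp1a the variant is found on both strands in a run of overlapping letters. Start regions were found for 34 of the 40 genes, without Fbl, Wdr36, Npm1, Rrp12, Bop1 and Gnl2. The canonical E-box lay in 8 of the 34 (23.5%), against 11.6% of the 9981 tested genes with a start region. The variant lay in 10 of the 34 (29.4%), against 19.7% of tested genes. Of the 6 rising genes with a start region, 2 held the canonical form and 4 the variant. Besides Nop2 and Mybbp1a, the canonical form stood in Utp20, Pes1, Tsr1, Nle1, Utp4 and Wdr43, whose log2 fold changes ran between 0.08 and 1.02. A match of letters is a description of the sequence and not a measured binding site.

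RNA polymerase I genes were higher in each tumour than in each gland, but none passed. The 3 members are Polr1a and Polr1b, the large catalytic subunits, and Polr1c, a subunit shared with RNA polymerase III. Polr1a was at 39.0, 37.8, 42.6 and 72.1 CPM in tumours 1a, 1b, 3 and 4, against 19.8, 23.5 and 32.4 CPM in glands 1, 2 and 3 (log2 0.92, SE 0.33, adjusted p = 0.12). Polr1b was at 11.6, 13.9, 18.5 and 26.4 CPM in those tumours and at 8.84, 6.21 and 10.4 CPM in the glands (log2 1.05, SE 0.38, adjusted p = 0.121). Polr1c was at 9.62, 5.17, 7.69 and 13.3 CPM in the tumours and 2.12, 3.66 and 4.88 CPM in the glands (log2 1.3, SE 0.46, adjusted p = 0.116). All 3 were highest in the papillary tumour. In all 3 every tumour lay above every gland, as in 16.3% of all genes. Tumour 1b stood closest to the glands for Polr1c.

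Among the box C/D proteins, Nop56 and Fbl rose. Fbl (fibrillarin) is the methyltransferase of the particle, and Nop56 and Nop58 form its scaffold. Nop56 (chromosome 2, 130274430 to 130279313, GRCm38) was at 62.4, 63.0, 78.1 and 74.6 CPM in tumours 1a, 1b, 3 and 4, against 19.8, 21.0 and 28.8 CPM in glands 1, 2 and 3. The lowest tumour was thus far above the highest gland. Nop56 rose 2.99-fold, with 69.5 ± 8.03 CPM in tumours (SD, n = 4) and 23.2 ± 4.89 CPM in glands (SD, n = 3; log2 1.58, SE 0.25, adjusted p = 0.0143). Its call was lost without any 1 gland. Fbl (chromosome 7, 28169710 to 28179269) was at 25.8, 26.8, 27.2 and 25.8 CPM in the same tumours and at 16.3, 11.5 and 10.5 CPM in the glands. The tumours lay close together and the glands did not reach them. Fbl rose 2.08-fold (log2 1.06, SE 0.25, adjusted p = 0.043). Its call was lost without any 1 library and under median-ratio or upper-quartile scaling. It was also lost with TMM without mitochondrial genes, with no filter on low counts and with tumours 1a and 1b summed. A Tulp4 transcript holds a copy at least 90% identical to Fbl over at least 50% of its length, and Tulp4 had 97.2 to 194 CPM in tumours and 130 to 137 CPM in glands, so the split of reads between them is uncertain. Nop58 did not pass, with 61.6, 53.7, 77.3 and 45.9 CPM in tumours and 50.2, 36.9 and 33.2 CPM in glands (log2 0.58, SE 0.28, adjusted p = 0.214). Here gland 1 lay above the papillary tumour.

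Among the box H/ACA genes, Nhp2 rose. Dkc1 (dyskerin) is the pseudouridine synthase, and Nhp2 and Gar1 are small proteins of the same particle. Nhp2 (chromosome 11, 51619735 to 51623714) was at 29.7, 18.8, 27.6 and 27.4 CPM in tumours 1a, 1b, 3 and 4, against 2.48, 8.01 and 5.64 CPM in glands 1, 2 and 3. Every tumour exceeded every gland, and the lowest gland was the shallow gland 1. Nhp2 rose 4.67-fold, the largest fold change of the 40, with 25.9 ± 4.84 CPM in tumours (SD, n = 4) and 5.37 ± 2.77 CPM in glands (SD, n = 3; log2 2.22, SE 0.42, adjusted p = 0.0245). Its call was lost without gland 3, the spindle cell tumour or tumour 1b. Dkc1 did not pass, with 40.7, 32.5, 40 and 27.0 CPM in tumours and 38.6, 26 and 24.6 CPM in glands (log2 0.24, SE 0.27, adjusted p = 0.591). Gar1 was at 3.35 to 6.97 CPM in tumours and 1.29 to 3.89 CPM in glands (log2 1.04, SE 0.51, adjusted p = 0.219). Both overlap between tumours and glands.

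**Figure D2:**
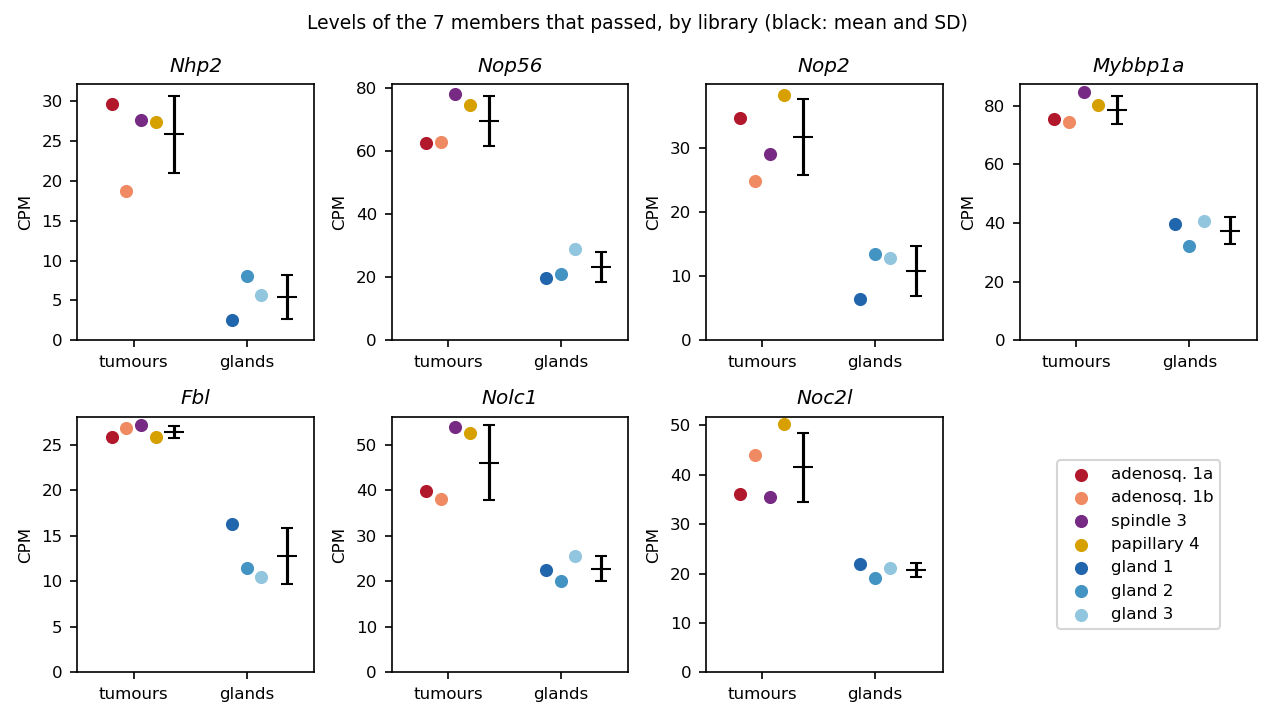
CPM of the 7 genes that rose, by library, with 4 tumours on the left and 3 glands on the right of each panel and the mean and SD in black. In each panel the lowest tumour lies above the highest gland. The vertical axes start at 0 and differ in range.

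Small subunit genes were the largest group and none of its 14 members passed, although 5 had an unadjusted p under 0.05, as did 28.9% of all genes in either direction. Their median log2 fold change was 0.47. In 7 of the 14 every tumour lay above every gland, as in 16.3% of all genes. Noc4l, a nucleolar factor of this subunit in yeast, had the highest fold change. It was at 5.87, 5.31, 9.66 and 12.8 CPM in tumours 1a, 1b, 3 and 4, against 0, 2.05 and 3.84 CPM in glands 1, 2 and 3 (log2 1.98, SE 0.86, adjusted p = 0.177). The 0 in gland 1 allows up to 1.06 CPM there, and the log2 CPM of Noc4l in that library depends on the prior count. Nop14, which binds Noc4l in yeast, had the lowest, with 35.7, 29.4, 34.5 and 24.1 CPM in tumours and 59.8, 28.8 and 22.4 CPM in glands (log2 -0.25, SE 0.37, adjusted p = 0.687). That sign was set by gland 1, since the log2 fold change was 0.28 without it, and it also turned with total counts in place of TMM (0.84) and in limma-voom (0.03). A test of Noc4l against Nop14 was not run.

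The early UTP-A complex binds the start of the ribosomal RNA precursor and is represented by 5 members. Heatr1 (log2 0.80, SE 0.29), Wdr75 (0.45, SE 0.32), Utp4 (0.14, SE 0.25), Utp15 (0.11, SE 0.37) and Wdr43 (0.08, SE 0.28) did not pass. In Heatr1 alone of these 5, every tumour lay above every gland, with 31.5 to 36.3 CPM in tumours and 12.4 to 26.1 CPM in glands. Wdr43 was at 79.2, 52.9, 63.5 and 54.5 CPM in tumours 1a, 1b, 3 and 4 and at 77.1, 56.6 and 44.3 CPM in glands 1, 2 and 3. The groups overlap over most of their range, and the sign of Wdr43 turned without gland 3 (-0.10) or tumour 1a (-0.03). Wdr3 and Wdr36, of the neighbouring UTP-B complex, showed every tumour above every gland at small differences (log2 0.61, SE 0.22, and 0.48, SE 0.27). Utp20, a very large scaffold protein, was at 43.9 to 64.0 CPM in tumours and 18.7 to 32.6 CPM in glands (log2 1.02, SE 0.28, adjusted p = 0.0676). Rrp9, the U3 particle protein, had log2 0.94 (SE 0.33, adjusted p = 0.117). Tsr1, Bysl and Rrp12, which act on later precursors of this subunit, had log2 fold changes of 0.66, 0.24 and 0.36. Tsr1 shares 1240 of its 3837 exonic bases with Srr on the other strand, and because the kit does not mark strand the reads from that stretch cannot be told from those of Srr, which was at 6.39 to 10.1 CPM in tumours and 19.8 to 23.0 CPM in glands.

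Large subunit genes included Nop2 and Noc2l among the rising members. Of 12 members, 2 rose, 0 fell and 10 did not pass, beside the 3.9% of all genes that rose and 4.57% that fell. The median log2 fold change of the 12 was 0.92. At unadjusted p under 0.05, 0 of them were lower. In DESeq2 and limma-voom 0 of them fell, beside 11.5% and 6.31% of all genes. Nop2 is a cytosine methyltransferase of the large ribosomal RNA (chromosome 6, 125131909 to 125144753). It was at 34.6, 24.9, 29.1 and 38.3 CPM in tumours 1a, 1b, 3 and 4, against 6.37, 13.4 and 12.8 CPM in glands 1, 2 and 3. All tumours lay above all glands. Nop2 rose 2.89-fold, with 31.7 ± 5.93 CPM in tumours (SD, n = 4) and 10.8 ± 3.90 CPM in glands (SD, n = 3; log2 1.53, SE 0.34, adjusted p = 0.0366). Noc2l, which in yeast travels with large subunit precursors, lies on chromosome 4 (156236010 to 156247616). It was at 36.2, 44.1, 35.5 and 50.2 CPM in the tumours and at 21.9, 19.2 and 21.1 CPM in the glands. The glands lay within 3 CPM of each other, below every tumour. Noc2l rose 2.00-fold (log2 1.00, SE 0.23, adjusted p = 0.0421). It shares 598 exonic bases with Samd11 on the other strand, which had 0.394 to 1.28 CPM in tumours and 0.0948 to 0.707 CPM in glands. The calls of Nop2 and Noc2l were lost without any 1 gland, the spindle cell tumour or either adenosquamous tumour, and that of Noc2l also without the papillary tumour. Both were also lost with no filter on low counts and with tumours 1a and 1b summed, and that of Noc2l with TMM without mitochondrial genes.

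Ppan, a Brix family protein of the same subunit, had the largest fold change of the group without passing. It was at 23.3, 19.2, 27.3 and 14.8 CPM in tumours 1a, 1b, 3 and 4, against 2.12, 7.63 and 8.49 CPM in glands 1, 2 and 3 (log2 1.75, SE 0.49, adjusted p = 0.0668). Every tumour lay above every gland. The PeBoW complex holds Pes1, Bop1 and Wdr12, and none passed. Bop1 was at 12.7 to 23.9 CPM in tumours and 2.12 to 9.39 CPM in glands (log2 1.49, SE 0.50, adjusted p = 0.103), and Pes1 at 21.7 to 37.2 CPM in tumours and 13.4 to 19.1 CPM in glands (log2 0.83, SE 0.29, adjusted p = 0.117). Wdr12, their partner, was at 12.9, 14.0, 39.6 and 17.9 CPM in tumours 1a, 1b, 3 and 4 and at 18, 13.2 and 17.8 CPM in the glands (log2 0.37, SE 0.44, adjusted p = 0.61). The spindle cell tumour alone stood above the glands, and without it the log2 fold change of Wdr12 was -0.08. Gnl3 (nucleostemin), a GTPase known from stem and tumour cells, was just outside the threshold, with 24.7 to 31.0 CPM in tumours and 11.3 to 16.9 CPM in glands (log2 1.01, SE 0.25, adjusted p = 0.0511). Its relative Gnl2 was at 42.5, 41.0, 44.1 and 38.2 CPM in tumours and 41.0, 31.6 and 37.2 CPM in glands (log2 0.18, SE 0.21, adjusted p = 0.60). Noc3l, which pairs with Noc2l in yeast, was at 23.6, 16.6, 15.6 and 15.1 CPM in tumours and 14.1, 15.5 and 16.5 CPM in glands (log2 0.20, SE 0.26, adjusted p = 0.646). Tumour 1a stood clear of the glands for Noc3l, and tumour 1b just above them. Rrp1b, Nop16 and Nle1 had log2 fold changes of 1.09, 0.83 and 0.65, and none passed.

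Of the 5 abundant nucleolar proteins and regulators, Mybbp1a and Nolc1 rose. Mybbp1a binds Myb and the RNA polymerase I machinery (chromosome 11, 72441355 to 72451768). It was at 75.4, 74.3, 84.6 and 80.4 CPM in tumours 1a, 1b, 3 and 4, against 39.6, 32.0 and 40.5 CPM in glands 1, 2 and 3. Both groups were tight and apart. Mybbp1a rose 2.11-fold, with 78.7 ± 4.78 CPM in tumours (SD, n = 4) and 37.4 ± 4.70 CPM in glands (SD, n = 3; log2 1.08, SE 0.21, adjusted p = 0.0274). Nolc1 (Nopp140), a chaperone of small nucleolar particles, lies on chromosome 19 (46075863 to 46085530). It was at 39.9, 38, 53.9 and 52.7 CPM in the tumours and at 22.6, 20.1 and 25.6 CPM in the glands. Nolc1 rose 2.02-fold (log2 1.02, SE 0.25, adjusted p = 0.0463). The adenosquamous tumours lay between the glands and the other tumours. The call of Mybbp1a was lost without any 1 gland, the spindle cell tumour or tumour 1b, and that of Nolc1 without any 1 library. Both were also lost with no filter on low counts and with tumours 1a and 1b summed, and that of Nolc1 with TMM without mitochondrial genes.

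Ncl and Npm1, nucleolin and nucleophosmin, are among the most abundant proteins of the nucleolus, and neither passed. Ncl was at 286, 383, 478 and 381 CPM in tumours 1a, 1b, 3 and 4, against 525, 324 and 161 CPM in glands 1, 2 and 3 (log2 0.18, SE 0.43, adjusted p = 0.809). Npm1 was at 426, 394, 402 and 394 CPM in tumours and 446, 256 and 181 CPM in glands (log2 0.46, SE 0.36, adjusted p = 0.429). For both genes the glands spanned the range of all tumours, with gland 1 highest and gland 3 lowest. Without gland 3, the log2 fold change of Ncl was -0.15. Together they took 37.8% to 43.1% of the counts of the 40 members in tumours and 32.4% to 57.4% in glands. The other 38 members took 0.211%, 0.182%, 0.231% and 0.18% of counts outside mitochondrial DNA in tumours 1a, 1b, 3 and 4, and 0.112%, 0.109% and 0.098% in glands 1, 2 and 3. The exact 95% binomial intervals of these shares did not overlap between tumours and glands (0.178% to 0.182% in the lowest tumour and 0.108% to 0.117% in the highest gland). Such intervals cover counting error only. With Ncl and Npm1 included, the share was 0.34%, 0.32%, 0.399% and 0.295% in those tumours and 0.264%, 0.209% and 0.145% in the glands. Pa2g4, a growth-linked nucleolar protein, was at 93.3 to 125 CPM in tumours and 51.4 to 68.3 CPM in glands (log2 0.88, SE 0.23, adjusted p = 0.0591).

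**Figure D3:**
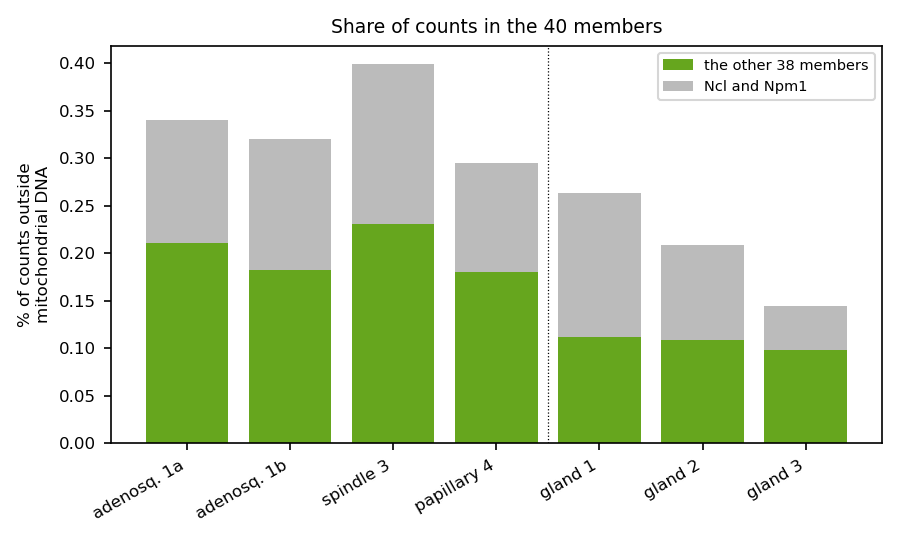
Share of counts outside mitochondrial DNA, in percent, taken by the 40 genes in each library (tumours left, glands right), with Ncl and Npm1 stacked on the other 38. The lower part is 0.18% or more in every tumour and at most 0.112% in the glands, while the upper part varies most between glands.

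By role, the summed CPM did not overlap between tumours and glands for the 3 RNA polymerase I genes (56.9 to 112 in tumours, 30.8 to 47.7 in glands) and the 3 box C/D genes (144 to 183 in tumours, 69.5 to 86.3 in glands). The same held for box H/ACA (57.4 to 75.0 in tumours, 33.1 to 44.9 in glands), small subunit (308 to 376 in tumours, 241 to 283 in glands) and large subunit genes (253 to 302 in tumours, 145 to 180 in glands). The 5 nucleolar proteins overlapped, at 952 to 1130 CPM in tumours and 470 to 1100 CPM in glands. Of single genes, 16.3% of all tested had every tumour above every gland, and no such share was taken for sums. The 8 members whose introns or exons hold small nucleolar RNA genes (Nop56, Nop58, Dkc1, Wdr43, Tsr1, Ppan, Gnl3 and Ncl) had a median log2 fold change of 0.62 with 1 rising, and the other 32 had 0.85 with 6 rising. Exons of 20 members overlap those of a gene on the other strand, and 4 of these 20 rose (Nop56, Nhp2, Mybbp1a and Noc2l), with a median log2 fold change of 0.81. Among the 20 without such an overlap 3 rose, with a median of 0.85. Over all genes tested, 3.9% rose and the median was 0.12.

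Each tumour was also set against the glands singly. Above every gland were 33, 27, 31 and 27 of the 40 genes in tumours 1a, 1b, 3 and 4. Of all genes tested, 36.5%, 36.5%, 36.3% and 38.7% lay there in the same tumours. Below every gland were Wdr12 in tumour 1a, Utp4 in tumour 1b and 0 members in tumours 3 and 4, beside 31.7%, 31.3%, 30.7% and 33.8% of all genes in tumours 1a, 1b, 3 and 4. The median difference of the members from the gland mean was 0.72, 0.65, 0.87 and 0.98 log2 CPM in tumours 1a, 1b, 3 and 4. Over all genes tested it was 0.08 to 0.10. The spindle cell and papillary tumours are 1 library each, so their differences have no replicate check.

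**Figure D4:**
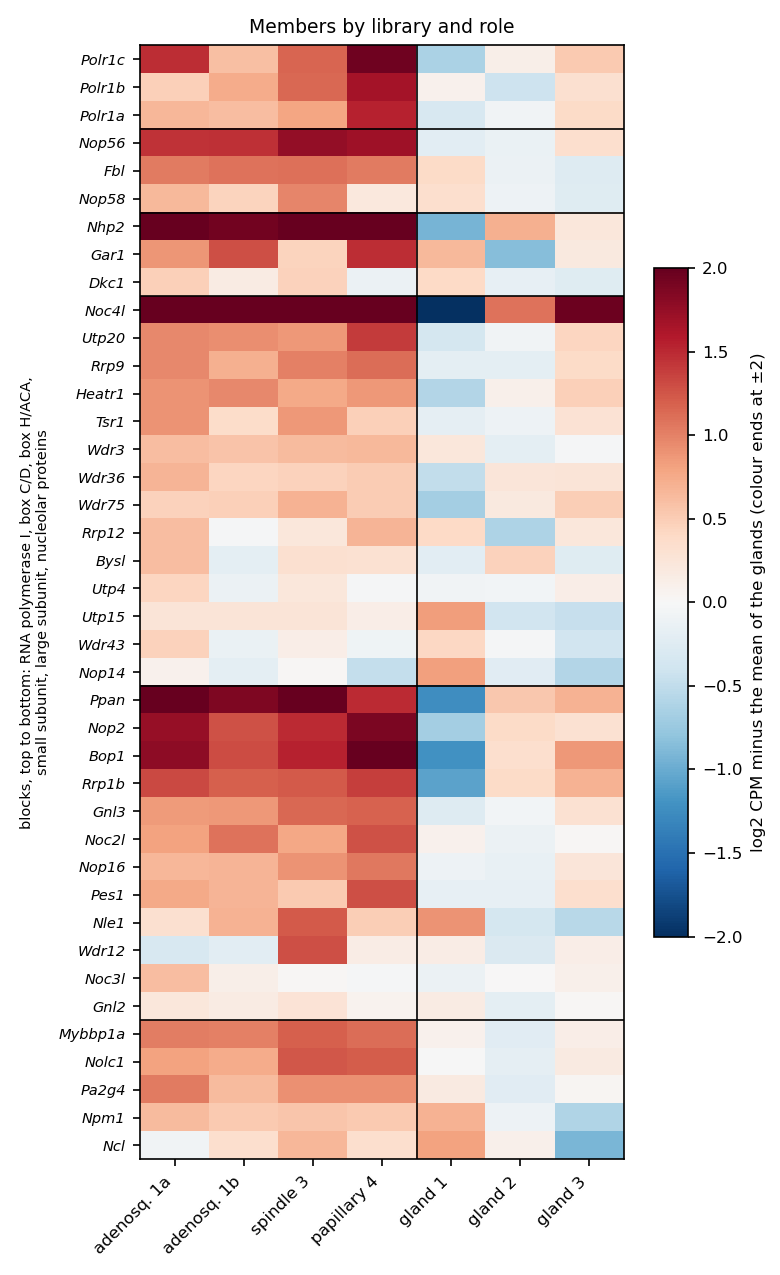
Log2 CPM of each gene minus its mean over the 3 glands (colour, which ends at 2 and -2), for 4 tumours on the left and 3 glands on the right, in blocks by role. Most rows are red in every tumour. Gland 1 is blue for Noc4l, Ppan and Bop1 and light red for Ncl, Npm1, Nop14 and Utp15.

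The adenosquamous tumours were then set against the glands alone. Of 40 members, Nop56 rose (log2 1.37, SE 0.27, adjusted p = 0.0356), 0 fell and 39 did not pass, beside 5.01% of 14708 genes rising and 5.36% falling. At unadjusted p under 0.05 were 11 members, all higher, beside 29.9% of all genes in either direction. In DESeq2 and limma-voom 0 members fell, beside 12.3% and 4.75% of all genes. Nhp2 was just outside, at log2 2.07 (SE 0.49, adjusted p = 0.0521), followed by Nop2 (1.38, SE 0.38, adjusted p = 0.0735) and Mybbp1a (0.93, SE 0.26, adjusted p = 0.0754). The median over the 40 was 0.59, and -0.04 over all genes. The call of Nop56 was lost without gland 1 or gland 3, where 1.94% and 0% of all genes rose. Leaving out tumour 1a or 1b leaves a single adenosquamous library, so no call is given for those fits. Cell type markers moved here too. All 7 cycling markers rose, 5 of 8 fat cell markers fell, and of 7 basal markers Krt5 (40-fold), Krt14 (103-fold) and Krt17 (74.1-fold) rose while Myh11 and Oxtr fell. Of 7 immune markers Cd68 (10.5-fold) and Itgam (20.2-fold) rose, as did Col1a1 (18.5-fold) of 6 fibroblast markers, and their part in the result was not tested. This comparison shares its glands with the one of all tumours.

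Between tumour types, 0 of 40 members passed in edgeR when the 2 adenosquamous tumours were set against the spindle cell and papillary tumours, and 0 had an unadjusted p under 0.05. In edgeR 0% of all 14101 genes passed in either direction, although 16.2% had an unadjusted p under 0.05. DESeq2 and limma-voom also called 0 members, while DESeq2 called 7.52% of all genes higher and 2.3% lower. The largest differences were those of Wdr12 (log2 -1.06, 95% interval -2.30 to 0.18), Noc4l (-0.99, interval -2.03 to 0.04) and Polr1b (-0.81, interval -1.79 to 0.17), all lower in the adenosquamous tumours. At the other end, Noc3l was at 0.41 (interval -0.49 to 1.31), Wdr43 at 0.18 (interval -0.70 to 1.07) and Nop14 at 0.17 (interval -0.70 to 1.04). Among the 7 genes that rose against glands, the differences ran from -0.44 for Nolc1 (interval -1.15 to 0.28) to 0.01 for Fbl (interval -0.75 to 0.76). Many of these intervals reach past 1 log2 unit, so the comparison does not show that the types are alike. Both adenosquamous tumours lay below both others in 12 members, as in 25.9% of all genes, and above both in 2, as in 23.7%. All 3 RNA polymerase I genes had negative differences (-0.50 to -0.81), none of which passed.

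The rest of the pathway was read from a wider list, also chosen with earlier results of these data known. Of 122 further genes of ribosome assembly listed by role, 121 were matched. Of these, 5 rose, 0 fell and 116 did not pass, beside the 3.9% of all genes that rose and 4.57% that fell. At unadjusted p under 0.05, 0 of them were lower. In DESeq2 and limma-voom 0 of them fell, beside 11.5% and 6.31% of all genes. The 121 had a median log2 fold change of 0.45, and every tumour lay above every gland in 49, as in 16.3% of all genes. In 1 of the 121, the exosome helicase Mtrex, every tumour lay below every gland (35.5 to 40.7 CPM in tumours and 42.6 to 44.9 CPM in glands), as in 13.2% of all genes. Mtrex was named after its values were seen. Ddx54, an RNA helicase of the nucleolus, had the smallest adjusted p. It was at 43.2, 29.3, 34.1 and 45.3 CPM in tumours 1a, 1b, 3 and 4, against 8.84, 13.7 and 13.1 CPM in glands 1, 2 and 3 (3.17-fold, log2 1.66, SE 0.29, adjusted p = 0.0185). Polr1g, a further RNA polymerase I subunit, was at 16.2, 15.2, 21.4 and 19.2 CPM in the tumours and 4.60, 7.03 and 8.53 CPM in the glands (2.64-fold, adjusted p = 0.038). Npm3, a relative of nucleophosmin, rose 2.87-fold (adjusted p = 0.0384), Wdr46, a small subunit factor, rose 2.87-fold (adjusted p = 0.0423), and Tbl3, of the UTP-B complex, rose 2.74-fold (adjusted p = 0.0451). Tbl3 was named after its values were seen. In all 5 of these genes each tumour lay above each gland. By list, 1 of 12 RNA polymerase I genes, 0 of 8 small nucleolar particle genes, 2 of 39 small subunit, 2 of 48 large subunit and 0 of 14 exosome genes rose in edgeR. At unadjusted p under 0.05 were 3, 3, 11, 16 and 5 of them, beside 28.9% of all genes in either direction. Without gland 1, 2 or 3, 0 of the 121 passed in edgeR, while 0.974%, 1.24% and 0.155% of all genes rose. At unadjusted p under 0.05, 26, 18 and 27 were higher, and the share of all genes there was not taken.

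**Figure D5:**
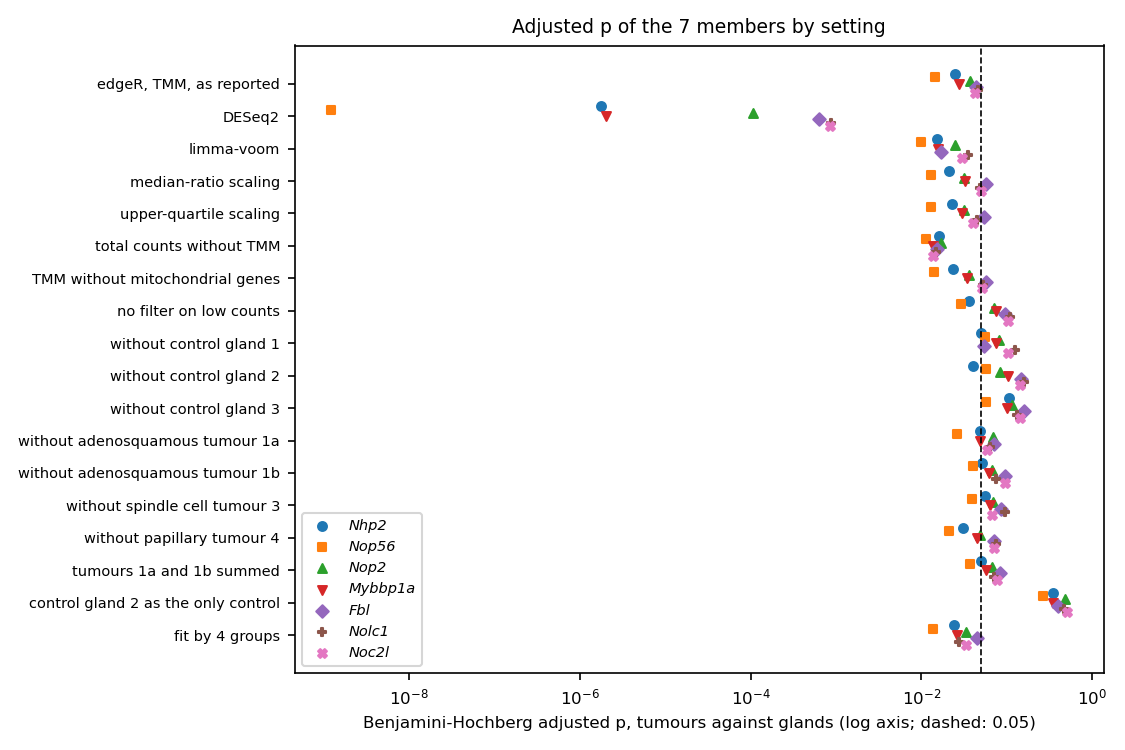
Adjusted p of the 7 rising genes in tumours against glands (log axis, dashed line at 0.05) under the settings and sets of libraries listed, 1 row each. Nop56 has the lowest value in most rows, and with gland 2 as the only control all 7 lie at 0.261 or above.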

How the data were processed

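Gene tables of 4 tumours and 3 glands were used. Per the labels' protocols, Trizol RNA was treated with DNase, made into TruSeq v2 libraries, which do not mark strand, and read as 2 reads of 75 bases. Per the submitters' processing notes, STAR 2.5, RSEM 1.3, limma and GRCm38 were used, and the sources used here give neither their settings nor their annotation. The deposited values, headed TPM, were read as the authors' estimated counts, since they sum to 5148438 to 35631279 per library rather than to a fixed total and 2.34% to 6.14% were not whole. They were rounded.

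Tests used edgeR 4.0.16 (R 4.3.3) quasi-likelihood fits after TMM scaling (factors 0.551 to 1.605) and filterByExpr (minimum count 10, total 15). All p-values were two-sided and Benjamini-Hochberg adjusted over all genes tested. SE is the log2 fold change over the square root of F. Log2 CPM used a prior count of 2. Each library counted as 1 replicate, and no pair had identical values. The code was tested on simulated data. Alternatives were DESeq2 1.42.0, limma-voom 3.58.1, other scalings and filters, and left-out libraries. The members, their role lists and the further genes were chosen with earlier results of these data known. Described library by library were genes that passed, the extremes of each role list and the 3 largest type differences in each direction (20 of 40). Positions and overlaps came from GENCODE M21, which held 50376 of 50600 identifiers. Similar copies were found with blastn 2.17.0.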

Additional observations from a re-analysis of the deposited data

Results flagged for a closer look

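Of the 40 genes, 1 had a tumour far from the others for the size of the spread. Utp15 was at 13.8 CPM in the papillary tumour and at 15 CPM in tumours 1a, 1b and 3, so the gap was 0.987 of the whole range of the 4 tumours, above Dixon's 95% critical value. Chance flags about 1 in 20 groups, and 40 were looked at. No member had the adenosquamous tumours on one side of all glands and the other tumours on the opposite side.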

How the results depend on the processing

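The 7 rising genes kept a positive log2 fold change under all alternatives in which they could be fitted (0.83 to 3.11), while the number passing moved. With other tools and scalings, rising members numbered 19 (DESeq2, beside 13% of all genes), 30 (total counts without TMM, which shifts the median of all genes to 1.08, beside 25.5%), 4 (TMM without mitochondrial genes, 3.61%) and 2 (no filter, 1.13%). They numbered 2 with tumours 1a and 1b summed (1.47%), and leaving out 1 library gave 0 to 4 (0.155% to 4.22%). Against gland 2 alone a single gland is left, so counts of genes passing are not given. Of the 121 further pathway genes, 26, 8, 64, 1, 1 and 8 rose with DESeq2, limma-voom, total counts, no filter, 1a and 1b summed and a fit by 4 groups, beside 13%, 4.46%, 25.5%, 1.13%, 1.47% and 6.89% of all genes. Without 1 library 0 to 2 rose (0.155% to 4.22% of all genes). The members' median log2 fold change was 1.79 with total counts, 0.97 against gland 2 alone and 0.67 to 0.95 without 1 library. Relative to the median of all genes it was 0.54 to 0.86 in 19 settings. In adenosquamous tumours against glands, rising members numbered 7 (DESeq2, 11.9% of all genes), 2 (4.59% to 6.01%: limma-voom, median-ratio scaling, no filter, at least 10 counts in every library, and the fit by 4 groups) and 22 (total counts, 20.4%). They numbered 0, 1 and 0 without gland 1, 2 or 3, beside 1.94%, 4.64% and 0% of all genes. Signs turned for Nop14 (0.03 in limma-voom and against gland 2 alone, 0.84 with total counts, 0.28 without gland 1; -0.51 to 0.28 without 1 library), Ncl (-0.15 without gland 3), Wdr43 (-0.10 without gland 3, -0.03 without tumour 1a; up to 0.32 without 1 library) and Wdr12 (-0.08 without the spindle cell tumour; up to 0.58 without 1 library). Fewer libraries or genes change the power by construction, and for the scalings the cause was not tested. Where 1 library of a type was left, it was assumed to vary like the others. With at least 10 counts in every library, 34 members could be tested. No paired analysis was possible because the tumours (1a, 1b, 3 and 4) and the glands (1, 2 and 3) are numbered separately, and no label says that a number marks a shared animal, batch or day.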

Other observations

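The glands differed from each other in which nucleolar genes were high. Gland 1 was the highest gland for 16 of the 40 genes and the lowest for 18, gland 3 the highest for 21 and the lowest for 10, and gland 2 the highest for 3 and the lowest for 12. The shares over all genes were not taken, so this order cannot be called a trait of the nucleolar genes. In gland 1, Ncl (525 CPM), Npm1 (446 CPM), Nop14 (59.8 CPM), Utp15 (22.6 CPM) and Nle1 (5.66 CPM) exceeded both other glands, while Noc4l (0 CPM), Bop1 (2.12 CPM), Ppan (2.12 CPM), Rrp1b (3.54 CPM) and Nhp2 (2.48 CPM) lay below both. Those genes were picked after their values were seen. Gland 1 also had the highest mitochondrial share, 64.83%, and the fewest nuclear counts, and the part of these was not tested.

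Myc transcripts differed between the tumours. Myc was at 33.4, 39.7, 1.28 and 50.1 CPM in tumours 1a, 1b, 3 and 4, against 4.95, 10.8 and 16.1 CPM in glands 1, 2 and 3. Tumours 1a, 1b and 4 lay above every gland, and tumour 3, the spindle cell tumour, below every gland. In tumours 1a, 1b, 3 and 4, 33, 27, 31 and 27 of the 40 members lay above every gland, beside 36.5%, 36.5%, 36.3% and 38.7% of all genes. At their highest among the tumours were 12, 1, 11 and 16 members there, and the shares over all genes were not taken. The spindle cell tumour is 1 library, and a relation of Myc to the members was not tested.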
